A study of Mus musculus with 8 samples.

Results

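The JAK and STAT genes are described here in resting B and T cells of the mouse by RNA-seq and by ribosome profiling, a method that reads the stretches of mRNA (footprints) shielded by ribosomes. They are Jak1, Jak3, Tyk2, Stat2, Stat3, Stat4, Stat5a, Stat5b and Stat6, listed by symbol and found through their Ensembl IDs, and they are 9 of the 53801 genes counted. B cells and T cells came from spleens of B6 mice, were separated with magnetic sorting kits, and spent 2 h in complete RPMI medium without a stated stimulus. The footprint samples also received cycloheximide, which holds ribosomes in place, at 100 µg/ml for 15 min. Each cell type had 2 libraries per assay, so that there were 8 libraries in 4 groups: B cell footprints (libraries 1 and 3), T cell footprints (1 and 2), B cell mRNA (1 and 3) and T cell mRNA (1 and 4). The labels do not say that libraries of a group came from different mice, so each p-value reflects library-to-library spread, which may be technical.

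Many cytokine receptors have no kinase of their own and carry Janus kinases (JAKs) on their inner side. When a cytokine joins the receptor chains, the JAKs phosphorylate the receptor and then the STAT proteins that dock on it, and paired STATs enter the nucleus and bind DNA. In lymphocytes this route carries the signals of interleukins and interferons for survival, growth and the choice of effector type. Stat5a and Stat5b are close relatives that serve the receptors of interleukin 2 and interleukin 7, among others.

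Stat5a and Stat5b are neighbours. Stat5b (ENSMUSG00000020919) occupies chr11:100780731-100859004 on the minus strand of GRCm38.p6, and Stat5a (ENSMUSG00000004043) occupies chr11:100859351-100885169 on the plus strand, so that they point away from each other with 346 bases between them. Stat3 (ENSMUSG00000004040, chr11:100886806-100939594, minus strand) lies 1636 bases past the end of Stat5a. No other annotated gene overlaps Stat5a, Stat5b or Tyk2 in RefSeq, whereas the other 6 members overlap at least 1 annotated gene, such as Apof for Stat2, Nab2 for Stat6 and Insl3 for Jak3. Strand use in counting was not given in the sources used here. Reads in such overlaps could belong to either gene. Stat2 (ENSMUSG00000040033) is at chr10:128270498-128292853 (plus), Stat6 (ENSMUSG00000002147) at chr10:127642955-127660987 (plus) and Stat4 (ENSMUSG00000062939) at chr1:51987106-52107189 (plus). Jak1 (ENSMUSG00000028530) is at chr4:101151974-101265282 (minus), Jak3 (ENSMUSG00000031805) at chr8:71676383-71690577 (plus) and Tyk2 (ENSMUSG00000032175) at chr9:21104068-21131393 (minus).

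RefSeq promoter windows (GRCm38.p6, 250 bases before to 50 after a start) were matched for all 9 members, in 12 windows. The pair below is shown because Stat5a and Stat5b are compared throughout. It holds the longest run of bases that any of their windows share, 16 bases, in capitals. The Stat5a window is chr11:100860234-100860533 (plus strand) and the Stat5b window is chr11:100822521-100822820 (minus strand).
Stat5a: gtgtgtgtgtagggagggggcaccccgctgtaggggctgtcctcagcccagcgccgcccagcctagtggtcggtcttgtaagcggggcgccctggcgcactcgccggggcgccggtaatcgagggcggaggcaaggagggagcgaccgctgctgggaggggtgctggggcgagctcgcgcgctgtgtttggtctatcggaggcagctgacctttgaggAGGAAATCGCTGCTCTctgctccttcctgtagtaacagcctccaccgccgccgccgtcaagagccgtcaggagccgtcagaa
Stat5b: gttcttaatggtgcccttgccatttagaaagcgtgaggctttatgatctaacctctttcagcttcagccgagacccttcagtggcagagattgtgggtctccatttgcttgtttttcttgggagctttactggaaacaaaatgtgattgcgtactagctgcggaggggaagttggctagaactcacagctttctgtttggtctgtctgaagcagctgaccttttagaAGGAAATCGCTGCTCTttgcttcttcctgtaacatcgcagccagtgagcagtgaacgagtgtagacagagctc

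Stat2 has a window at chr10:128270248-128270547 (plus strand), shown with a match to the core of the interferon-stimulated response element (ISRE) in capitals, 222 bases before the start.
Stat2: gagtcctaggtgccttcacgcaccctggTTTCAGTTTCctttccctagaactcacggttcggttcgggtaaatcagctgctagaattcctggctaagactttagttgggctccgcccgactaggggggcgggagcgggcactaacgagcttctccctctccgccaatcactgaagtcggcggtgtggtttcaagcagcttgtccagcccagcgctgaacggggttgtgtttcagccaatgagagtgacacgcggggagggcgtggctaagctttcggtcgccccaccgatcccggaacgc
The ISRE core was searched as GAAA, any 2 bases, then GAAA, on both strands, so that the match above is on the minus strand. It was in 2 of the 12 member windows, those of Stat2 and of the second Stat4 start, and in 3.44% of all 32851 windows. Stat2 was higher and Stat4 lower in B cell mRNA, and a link between the match and the levels was not tested. The gamma-activated site that STATs bind was searched as TTCNNNGAA, which reads the same on both strands. It was in 0 of the 12 member windows and in 8.30% of all windows.

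Footprint libraries held 136433 to 627833 counts and mRNA libraries 8945905 to 10050986, a gap of 14.2 times between the smallest of mRNA and the largest of footprints. Levels are CPM on TMM-scaled totals. Coding or transcript lengths were not used here, so levels are compared between libraries and not between genes. The sorted cells carried their own markers, but 8 T cell markers summed to 1.77% and 11.4% of their T cell level in B cell mRNA libraries 1 and 3, and to 1.85% and 4.95% in B cell footprint libraries 1 and 3. In T cell mRNA libraries 1 and 4 the 8 B cell markers came to 0.773% and 1.69% of what B cells had, and in T cell footprint libraries 1 and 2 to 1.56% and 5.24%. All 8 T cell markers had counts in both B cell mRNA libraries, while in B cell footprints Cd247 was at 0 in both libraries and Lat in library 1. All 7 natural killer cell markers had counts in mRNA, summing to 23.1 and 99.3 CPM in B cells, against 420 and 574 CPM in T cells; in footprints they summed to 79.6 and 642 CPM in B cells (Ncr1, Klrb1c and Klre1 at 0 in library 1), against 929 and 995 CPM in T cells (Ncr1 at 0 in library 2). The 5 plasma cell markers all had counts in every library and summed to 1573 and 3697 CPM in B cell footprints, against 361 and 613 CPM in T cell footprints, and to 1906 and 655 CPM in B cell mRNA, against 1147 and 124 CPM in T cell mRNA. Of 6 neutrophil markers 2 to 5 had counts. They summed to 9.36 and 615 CPM in B cell footprints, against 38.5 and 231 CPM in T cell footprints. In mRNA the sums were 94.8 and 11.4 CPM in B cells, against 118 and 6.23 CPM in T cells. Mpo and Elane stood at 69.7 and 23.1 CPM in B cell mRNA library 1, and at 91.5 and 22.5 CPM in T cell mRNA library 1. In footprints Mpo and Elane were at 0 in every library, and S100a8, S100a9 and Camp made the sums. The 6 macrophage or monocyte markers summed to 45.6 and 125 CPM in B cell mRNA, against 49.1 and 263 CPM in T cell mRNA. In footprints they came to 187 and 152 CPM in B cells, against 213 and 175 CPM in T cells. The 5 dendritic cell markers summed to 21.1 and 39.1 CPM in B cell mRNA, against 38.3 and 26.0 CPM in T cell mRNA. Their footprints came to 51.5 and 174 CPM in B cells, against 89.9 and 39.8 CPM in T cells. The part of other cells in the results below was not tested. Small nuclear and nucleolar RNAs took 2.76% to 18.6% of footprint counts.

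**Figure D1:**
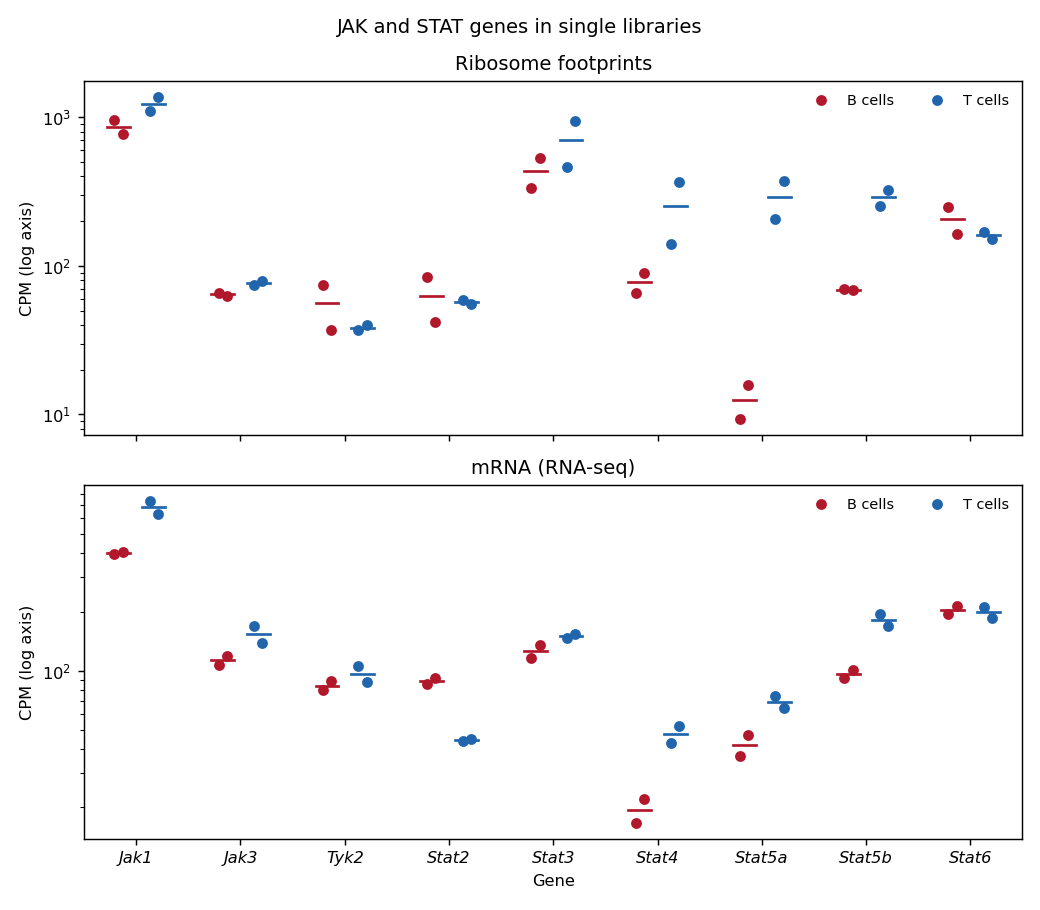
Level of each JAK and STAT gene in single libraries, in CPM on a log axis, for footprints (top) and mRNA (bottom). Points are libraries and bars are means of 2 libraries, with B cells left of T cells. Stat5a footprints were 9.36 and 15.8 CPM in B cells, against 205 and 374 CPM in T cells.

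In mRNA, Stat2 was higher in B cells than in T cells, and Stat4, Stat5b and Jak1 were lower. Stat2, which joins Irf9 in the complex that answers type I interferon, had 85.4 and 91.7 CPM in B cells, against 43.5 and 44.6 CPM in T cells. Stat4, which serves interleukin 12, had 16.7 and 22.1 CPM in B cells, against 42.7 and 52.3 CPM in T cells. The B and T cell libraries did not overlap for either gene. With 2 libraries against 2, the smallest two-sided p of a permutation test is 0.333, so a lack of overlap alone shows little, here and below. Its share over all genes was not counted. In bulk samples, fewer cells of a type and less RNA per cell cannot be told apart.

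Jak1, the kinase shared by most interleukin and interferon receptors, had 395 and 402 CPM in B cell mRNA, against 734 and 630 CPM in T cell mRNA. Stat5b had 91.8 and 101 CPM in B cells, against 195 and 169 CPM in T cells. Stat5a had 36.7 and 46.9 CPM in B cells, against 74.2 and 64.5 CPM in T cells. For these 3 genes too, both B cell libraries lay below both T cell libraries.

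The log2 difference of B over T cells in mRNA was 1.01 ± 0.11 for Stat2 (SE; adjusted p = 0.00949, edgeR quasi-likelihood test with Benjamini-Hochberg adjustment over 13929 genes). It was -1.29 ± 0.22 for Stat4 (adjusted p = 0.0231), -0.92 ± 0.15 for Stat5b (adjusted p = 0.0198) and -0.77 ± 0.17 for Jak1 (adjusted p = 0.0395). Stat5a, at -0.73 ± 0.17, lay at the threshold (adjusted p = 0.0501) and passed with DESeq2 (0.0130), RLE size factors (0.0469) and protein-coding genes alone (0.0343). Thus 1 of 9 members was higher and 3 were lower, with a background of 9.40% of all genes tested higher and 9.06% lower (18.5% in either direction). The median was -0.44 over the members and -0.01 over all genes.

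The remaining members did not pass in mRNA. Jak3, the kinase of the shared gamma chain Il2rg, had 107 and 119 CPM in B cells, against 168 and 139 CPM in T cells (-0.44 ± 0.16, adjusted p = 0.132). Stat3, which serves interleukins 6, 10 and 21, had 116 and 136 CPM in B cells, against 147 and 154 CPM in T cells (-0.26 ± 0.14, adjusted p = 0.290). For Jak3 and Stat3 the B cell libraries still lay below the T cell libraries. Tyk2, a kinase of the type I interferon and interleukin 12 receptors, had 79.2 and 88.3 CPM in B cells, against 105 and 87.6 CPM in T cells, which overlap (-0.20 ± 0.15, adjusted p = 0.420). Stat6, the main STAT of interleukin 4, had 195 and 215 CPM in B cells, against 211 and 186 CPM in T cells, overlapping ranges with a log2 difference of 0.05 ± 0.15.

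With 1 library left out, a fit in which 1 group has a single library, most of the mRNA calls were lost in at least 1 case while the differences kept their direction. The Stat4 call was lost without B cell library 1 (-1.10, adjusted p = 0.0602). That of Stat5b was lost without B cell library 1, B cell library 3 or T cell library 1 (0.0831, 0.0619 and 0.0580), with differences between -1.04 and -0.81 over the 4 cases. Jak1 did not pass when any 1 of the 4 libraries was left out (differences between -0.89 and -0.66, adjusted p between 0.0664 and 0.157), with no filter on low counts (0.0535) or with all 8 libraries in 1 fit (0.0744). Stat5a ran from -0.91 to -0.56 and passed without T cell library 4 (adjusted p = 0.0494). Stat2 passed whichever library was left out (0.96 to 1.07).

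In footprints, Stat5a and Stat5b were lower in B cells, and no other member passed the test. Stat5a had 2 and 3 footprint counts in B cells, against 128 and 47 in T cells. In CPM these were 9.36 and 15.8 in B cells, against 205 and 374 in T cells. The B cell libraries stood at 3.23% and 5.44% of the T cell mean in footprints, while in mRNA they stood at 52.9% and 67.6% of it.

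Stat5b had 70.2 and 68.4 CPM of footprints in B cells, against 254 and 326 CPM in T cells. That put B cells at 24.2% and 23.6% of the T cell mean in footprints, and at 50.5% and 55.3% in mRNA. For both STAT5 genes, every B cell footprint library was below every T cell one. Gene totals over both libraries gave a Stat5a ratio of B over T cells of 0.0530 (95% exact interval 0.0170 to 0.126, counting error only).

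The footprint log2 difference of B over T cells was -4.44 ± 0.60 for Stat5a (adjusted p = 0.000552, edgeR over 4771 genes) and -2.04 ± 0.41 for Stat5b (adjusted p = 0.00520). Both passed whichever library was left out, Stat5a with an adjusted p of at most 0.00346. So 0 of 8 members tested were higher and 2 were lower, beside a background of 8.38% higher and 4.80% lower (13.2% in either direction). Tyk2 was below the filter on low counts, so the 8 are not all the members. It had 16 and 7 counts (74.9 and 36.8 CPM) in B cells, against 23 and 5 counts (36.9 and 39.8 CPM) in T cells. Stat5a passed that filter only through the T cells, so it could enter the test only with a lower level in B cells. The count of 2 lower includes Stat5a, and its p-value does not allow for this selection.

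Stat4 footprints had 65.5 and 89.4 CPM in B cells, against 140 and 366 CPM in T cells. The log2 difference of -1.61 ± 0.53 did not pass (adjusted p = 0.0703), although it did without B cell library 3 (-1.83, adjusted p = 0.00597) or T cell library 1 (-2.28, adjusted p = 0.00582), and with no filter on low counts (-1.63, adjusted p = 0.0171). Without T cell library 2 the difference was -0.90 (adjusted p = 0.511), and without B cell library 1 it was -1.37 (adjusted p = 0.0668). Stat3 had 337 and 531 CPM in B cells, against 462 and 940 CPM in T cells, which overlap. Jak1 had 964 and 768 CPM in B cells, against 1098 and 1370 CPM in T cells, at -0.51 ± 0.43.

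For Stat6 and Stat2, the footprint libraries of B and T cells overlapped. Stat6 had 248 and 163 CPM in B cells, against 170 and 151 CPM in T cells (0.34 ± 0.39), and Stat2 had 84.2 and 42.1 CPM in B cells, against 59.4 and 55.7 CPM in T cells (0.13 ± 0.52). The Stat2 values rested on 18 and 8 counts in B cells, against 37 and 7 in T cells. Jak3 had 65.5 and 63.1 CPM in B cells, against 73.8 and 79.6 CPM in T cells, at -0.24 ± 0.46.

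**Figure D2:**
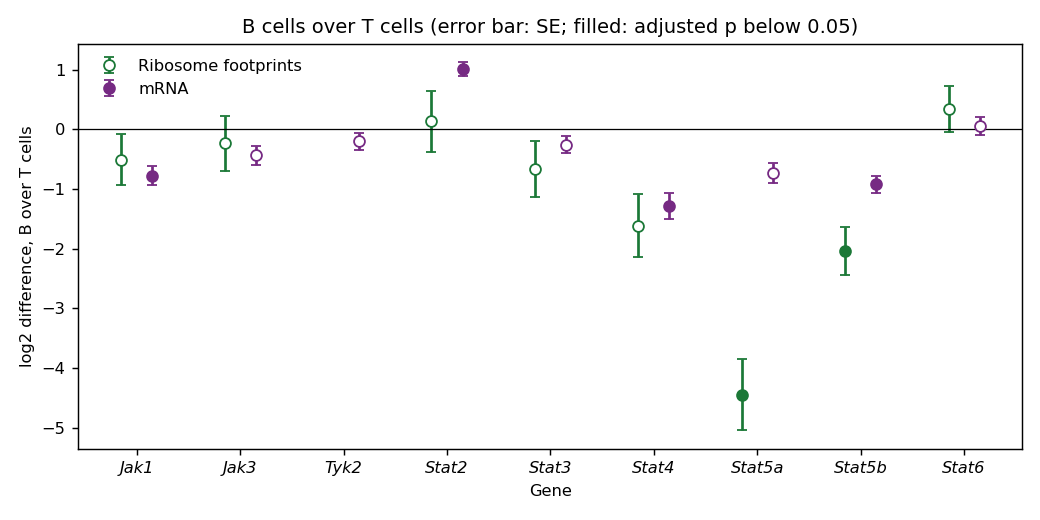
Log2 difference of B over T cells for each JAK and STAT gene in footprints (green) and mRNA (purple), with standard errors, filled where the adjusted p was below 0.05. Stat5a lay at -4.44 in footprints and -0.73 in mRNA, and Tyk2 has no footprint value because its counts were below the filter.

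Footprints were then set against mRNA for B cells and for T cells separately, in 1 fit of the 8 libraries over 13227 genes. Each value is the log2 of scaled footprint counts over scaled mRNA counts. No lengths were used and the counted feature was not given, so it does not measure ribosome load per transcript directly. The median over all genes was -0.44 in B cells and -0.54 in T cells and moved with the scaling (-0.34 and -0.42 with RLE size factors). It moved more with the genes that entered. It was -0.26 and -0.30 for protein-coding genes alone, and 0.014 and -0.041 for genes that pass the footprint filter. With no filter beyond 1 count it was -1.31 and -1.30. Each value is given with its distance from the median of the main fit, and that distance depends on these choices. The tests ask whether a value differs from 0, not from the median. In B cells, the value was called above 0 for Stat3 and Stat4, and below 0 for Stat5a and Jak3. In T cells, it was called above 0 for Stat3, Stat4 and Stat5a, and below 0 for Jak3 and Tyk2.

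Stat4 had footprints over mRNA of 1.76 ± 0.46 in B cells (2.20 above the median, adjusted p = 0.0299, edgeR) and 2.03 ± 0.39 in T cells (2.57 above, adjusted p = 0.00730). Stat3 had 1.56 ± 0.36 in B cells (2.00 above, adjusted p = 0.0189) and 1.93 ± 0.36 in T cells (2.46 above, adjusted p = 0.00641). Both values lay above the all-gene median in both cell types. Stat5a had -1.97 ± 0.50 in B cells (-1.54 from the median, adjusted p = 0.0276) and 1.75 ± 0.29 in T cells (2.28 above, adjusted p = 0.00427).

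Jak3 stood at -1.04 ± 0.26 in B cells (-0.60 from the median, adjusted p = 0.0280) and -1.23 ± 0.25 in T cells (-0.70 from it, adjusted p = 0.00875). Tyk2 stood at -0.79 ± 0.33 in B cells (-0.35 from the median, adjusted p = 0.125) and at -1.56 ± 0.33 in T cells (-1.02 from it, adjusted p = 0.0105). In B cells 2 of 9 members were higher and 2 lower, with a background of 6.51% higher and 12.3% lower (18.8% in either direction). In T cells 3 were higher and 2 lower, with a background of 8.91% higher and 18.6% lower (27.5% in either direction). With DESeq2 the split of all genes was 1428 higher and 1504 lower in B cells, where edgeR gave 861 and 1623, and 1692 higher and 2202 lower in T cells, where edgeR gave 1178 and 2464.

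The other members did not pass in either cell type. Jak1 was 0.90 ± 0.27 in B cells (adjusted p = 0.0510) and 0.60 ± 0.27 in T cells (0.123), Stat5b -0.70 ± 0.27 in B cells (0.102) and 0.41 ± 0.23 in T cells (0.210). Stat2 was -0.69 ± 0.32 in B cells and 0.20 ± 0.30 in T cells, and Stat6 was -0.21 ± 0.28 in B cells and -0.51 ± 0.28 in T cells. Jak1 passed in B cells with RLE scaling (adjusted p = 0.0346) and in both cell types with DESeq2.

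The B cell calls were not kept in every fit with 1 library left out, although the values of the 4 members called kept their direction. Stat3 ran from 1.17 to 1.82, Stat5a from -2.41 to -1.66 and Jak3 from -1.10 to -0.93. None of the 4 members passed without B cell footprint library 3, where the adjusted p was 0.117 for Stat3, 0.213 for Stat4, 0.0891 for Stat5a and 0.0804 for Jak3. Without B cell footprint library 1, Stat4 (1.94, adjusted p = 0.0967), Stat5a (0.171) and Jak3 (0.0757) did not pass, while Stat2 (-1.33, 0.0437) and Tyk2 (-1.44, 0.0470) did. Without B cell mRNA library 1, Stat3, Stat4 and Jak3 did not pass (0.0709, 0.0791 and 0.0806). Without B cell mRNA library 3, Stat3, Stat5a and Jak3 did not (0.0544, 0.0810 and 0.127). In B cells the Jak3 call was also lost with no filter on low counts (0.0587), and over genes that pass the footprint filter, a choice made after seeing the data, Stat4 did not pass (0.0612) and Stat5b did (0.0404). In T cells, Jak3 and Tyk2 did not pass without footprint library 1 (0.0944 and 0.160), with values between -1.33 and -1.06 for Jak3 and between -1.65 and -1.40 for Tyk2 over all libraries left out in turn, and Stat3, Stat4 and Stat5a passed whichever library was left out.

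**Figure D3:**
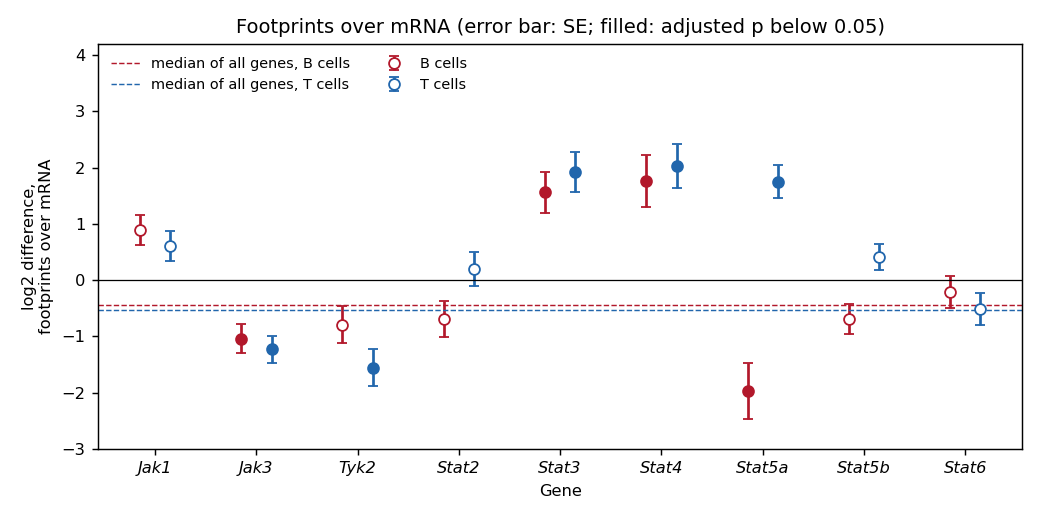
Log2 difference of footprints over mRNA for each JAK and STAT gene in B cells (red) and T cells (blue), with standard errors, filled where the adjusted p was below 0.05, and the all-gene medians of -0.44 and -0.54 as dashed lines. Stat5a stood at -1.97 in B cells and 1.75 in T cells.

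The difference between cell types in footprints over mRNA is called the translational efficiency difference here. For Stat5a it was -3.72 ± 0.56, lower in B cells, with an unadjusted p of 0.000122 and rank 1 of 13227 genes, but an adjusted p of 0.818 in edgeR. For Stat5b it was -1.11 ± 0.35 (unadjusted p = 0.0130, adjusted p = 0.875). The model called 0% of all genes, with 748 at an unadjusted p below 0.05. DESeq2 called 10 of the 3482 genes for which it gave an adjusted p (0.287%), among them Stat5a at -3.78 ± 0.82 (adjusted p = 0.00509). No other member passed in either fit.

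Among the other members the efficiency difference was smaller in size, and none passed. Stat2 stood at -0.89 ± 0.44, Tyk2 at 0.77 ± 0.47, Stat3 at -0.37 ± 0.49, Stat6 and Jak1 at 0.29 with SE of 0.40 and 0.38, Stat4 at -0.27 ± 0.58 and Jak3 at 0.19 ± 0.36. The lowest adjusted p among them was 0.875, for Stat2. With 1 library left out, Tyk2 ran from 0.0074 (without B cell footprint library 1) to 1.13 (without B cell footprint library 3), and Stat2 from -1.64 to -0.53 in the same 2 cases. Stat3 ran from -0.86 (without T cell footprint library 1) to -0.016 (without T cell footprint library 2). The sign of Stat4 turned without T cell footprint library 2 (0.25), and that of Jak1 (-0.04) and Stat6 (-0.20) turned without B cell footprint library 1.

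Stat5a was then set against Stat5b within each library, which needs no scaling between libraries. Footprint libraries were sequenced single-end and mRNA libraries paired-end. How reads that match both genes were counted was not given, so shares in footprints and in mRNA may differ for that reason, which was not tested. The Stat5a share of the counts of both genes was 11.8% (2 Stat5a and 15 Stat5b counts, exact 95% interval 1.46 to 36.4) and 18.8% (3 and 13 counts, 4.05 to 45.6) in footprints of B cells. It was 44.8% (38.9 to 50.7) and 53.4% (42.5 to 64.1) in footprints of T cells. In mRNA it was 28.6% (26.0 to 31.3) and 31.8% (29.3 to 34.4) in B cells, against 27.5% (25.8 to 29.3) and 27.7% (25.8 to 29.6) in T cells. Both B cell footprint libraries lay below all mRNA libraries and both T cell footprint libraries above them. The intervals cover counting error only, and those of the B cell footprint libraries overlap the mRNA shares.

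The mean log2 ratio of Stat5a over Stat5b was -2.29 ± 0.48 for footprints of B cells and -0.05 ± 0.35 for footprints of T cells, -1.21 ± 0.16 in B cell mRNA and -1.39 ± 0.01 in T cell mRNA (SD, n = 2 libraries each, 0.5 counts added). Footprints against mRNA gave 0.13 over both cell types (exact permutation test, two-sided p = 0.778 of 36 arrangements within cell type). B over T cells gave -1.03 over both assays (exact permutation p = 0.333). The difference in B minus T cells between footprints and mRNA was -2.42, a ratio 5.34 times lower. With cell labels permuted within each assay, the exact permutation p was 0.0556, the smallest that 36 arrangements allow. This test was added after the values were seen. Their order, B cells below T cells in footprints and above them in mRNA, fixes that p. Shuffling these labels assumes no cell difference in either assay, so no conclusion is drawn from it. The difference between footprints and mRNA turned to -0.042 without B cell footprint library 3.

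**Figure D4:**
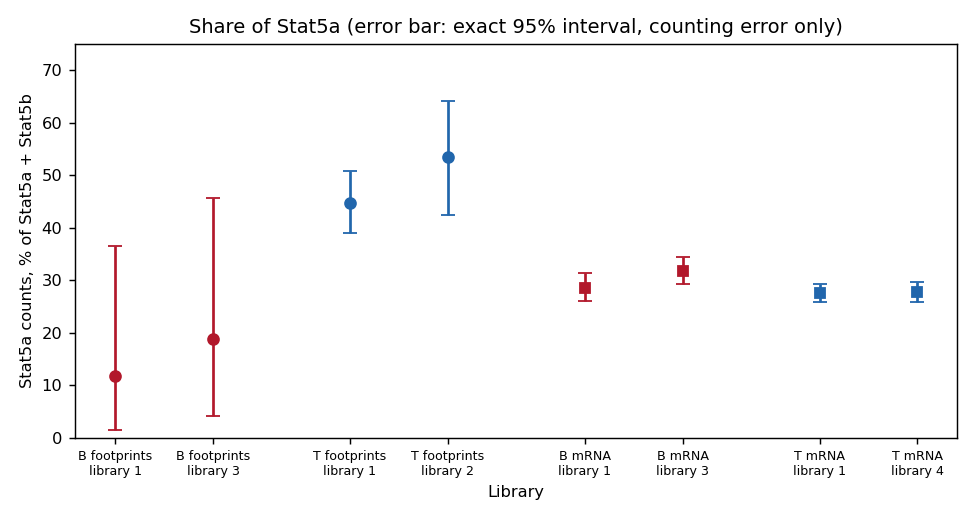
Stat5a counts as a percentage of Stat5a plus Stat5b counts in each library, with exact 95% intervals that cover counting error only, footprints as circles, mRNA as squares, B cells red, T cells blue. B cell footprints lay at 11.8% and 18.8% and T cell footprints at 44.8% and 53.4%.

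The genes closest to Stat5a in pattern over the 8 libraries were Ubxn8 (Pearson r = 0.995), Emsy (0.993) and Mxi1 (0.992), and those closest to Stat5b were Gm12840 (0.996), Tnfrsf18, the costimulatory receptor GITR (0.996), and Itpkb, an inositol trisphosphate kinase (0.995). The measure was log2 CPM with the mean of each assay subtracted, over 7561 genes with a mean of at least 10 CPM in each assay. The libraries share depth and cell type, and the correlation is a description with no test.

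The other genes of the route were counted from lists chosen with earlier results of these data known, and each count is to be read beside the share of all genes called: 9.40% higher and 9.06% lower in mRNA (18.5% in all), and 8.38% higher and 4.80% lower in footprints (13.2% in all). Of 22 ligand genes, 10 were tested in mRNA, with 2 higher and 4 lower in B cells. Il12a, the p35 subunit of interleukin 12, had 23.9 and 26.2 CPM in B cells, against 0.712 and 0.423 CPM in T cells (7 and 4 counts), and passed the filter only through the B cells. Ebi3, which pairs with p28 or p35, had 21.1 and 14.1 CPM in B cells, against 5.90 and 6.23 CPM in T cells. Lif was lower, with 2 and 3 counts in B cells, against 26 and 31 in T cells. Il21 had 0 counts in B cells, against 54 in T cells, at least 16.8-fold lower against 3 counts over the group; both passed the filter only through the T cells. In footprints 0 of the 22 passed the filter on low counts.

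Of 32 receptor genes, 28 were tested in mRNA, with 8 higher and 8 lower in B cells, where the shares of all genes were 9.40% and 9.06%. Il5ra, the interleukin 5 receptor alpha chain, had 29.4 and 33.3 CPM in B cells, against 0.508 and 0.951 CPM in T cells (5 and 9 counts), and passed the filter only through the B cells, and Il9r stood at 3.41 ± 0.24. Il6st, the shared gp130 chain, had 14.3 and 21.4 CPM in B cells, against 145 and 152 CPM in T cells (-3.06 ± 0.23), and Il6ra stood at -2.78 ± 0.22. In footprints 13 were tested, with 0 higher and 4 lower. Il7r had 1 and 7 footprint counts (4.68 and 36.8 CPM) in B cells, against 274 and 46 counts (440 and 366 CPM) in T cells, and passed the filter only through the T cells, and Ifngr1 stood at -2.84 ± 0.53. B cell library 3 in both assays had the higher Il7r level of the B cell pair (28.5 CPM of mRNA in library 3 and 1.46 CPM in library 1), as it had of T cell markers.

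Of 20 feedback inhibitors and phosphatases, all tested in mRNA, 3 were higher and 3 lower, which is 6 of 20 beside 18.5% of all genes. Cish, a STAT5-induced inhibitor, stood at -3.46 ± 0.34 and was at 3.72 CPM or less in both B cell libraries and at 28.6 CPM or more in both T cell libraries, and Socs1 stood at -2.04 ± 0.17. The phosphatase gene Ptpn6 was higher (1.63 ± 0.22), as was the adaptor gene Sh2b3 (1.85 ± 0.24). In footprints 10 were tested, with Ptpn6 higher (3.32 ± 0.56) and Cish and Socs3 lower. Cish had 0 and 1 footprint counts in B cells, against 31 and 8 in T cells, and Socs3 had 5 and 3 counts in B cells, against 56 and 16 in T cells. Both passed the filter on low counts only through the T cells. The 10 cofactor genes, such as Crebbp and Ep300, gave 0 calls in B over T cells in either assay.

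Of 16 common STAT5 and STAT6 targets, 3 were higher and 8 lower in mRNA. Fcer2a, the low-affinity IgE receptor, had 735 and 920 CPM in B cells, against 1.32 and 9.30 CPM in T cells, and Bcl6, a transcriptional repressor that germinal centre B cells need, stood at 1.82 ± 0.19. Lower were Cish, above, and the survival gene Bcl2l1 (-1.80 ± 0.19). In footprints 12 were tested, with Fcer2a and Myc (3.22 ± 0.55) higher and Cish, Gata3 and Foxp3 lower. Fcer2a had 265 and 153 footprint counts in B cells, against 11 and 3 in T cells, and passed the filter only through the B cells. Gata3 and Foxp3, which passed only through the T cells, had 0 footprint counts in B cells, at least 9.89-fold and 7.01-fold lower against 3 counts over the group.

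Of 22 interferon-stimulated genes, 1 was higher and 7 lower in mRNA. Mx2 stood at 1.32 ± 0.30, and Ifih1 (-2.50 ± 0.29) and Oas3 (-1.88 ± 0.25) led the lower ones. In footprints 8 were tested, with Oas3 and Irf1 (-1.36 ± 0.40) lower. Oas3 had 2 and 0 footprint counts in B cells, against 34 and 7 in T cells, and passed the filter only through the T cells. The median in mRNA was -0.71 over these genes, beside -0.01 over all genes. The median was -2.51 over the ligands, -0.89 over the STAT targets, -0.11 over the receptors, -0.05 over the inhibitors and 0.01 over the cofactors.

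**Figure D5:**
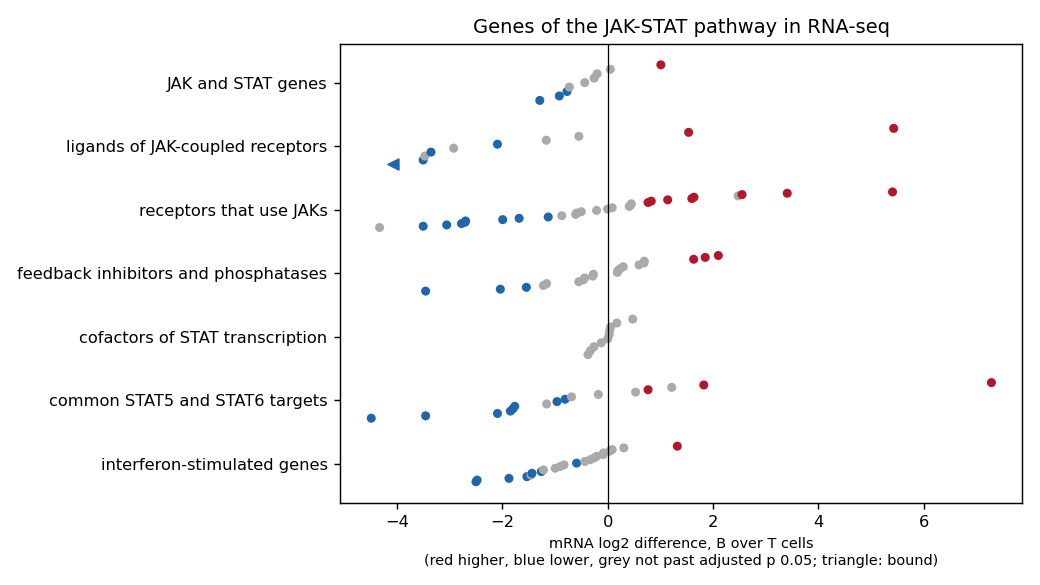
Log2 difference of B over T cells in mRNA for every tested gene of the JAK and STAT families and of 6 lists of their route, red where higher and blue where lower at an adjusted p below 0.05, grey otherwise. The triangle is the bound of Il21, which had 0 counts in B cells. The JAK and STAT genes lay between -1.29 and 1.01.

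Footprints over mRNA were called higher for 6.51% and lower for 12.3% of all genes in B cells, and higher for 8.91% and lower for 18.6% in T cells. Of the lists, 2 of 10 cofactors were higher and 0 lower in each cell type, and of 20 inhibitors 3 were higher and 3 lower in B cells, and 2 higher and 5 lower in T cells. Crebbp had 1.92 ± 0.25 in B cells and 1.86 ± 0.25 in T cells, Ep300 1.67 ± 0.34 in B cells and 1.40 ± 0.34 in T cells, and both passed in both cell types. Ptprc, the phosphatase CD45, had 2.45 ± 0.35 in B cells and 2.02 ± 0.34 in T cells. Sh2b3 had -2.89 ± 0.37 in B cells, on 6 and 6 footprint counts. Pias3, a STAT3 inhibitor, had -4.02 ± 0.68 in T cells, on 1 and 0 footprint counts, so its size is uncertain. Of 28 receptors tested, 2 were higher and 3 lower in B cells, led by Ifngr1 (1.37 ± 0.39) and Il10ra (-2.45 ± 0.44), and 4 higher and 6 lower in T cells, led by Ifngr1 (3.30 ± 0.40) and Il27ra (-1.36 ± 0.29). Il10ra rested on 9 and 6 footprint counts in B cells. Among the receptors called lower in T cells, Il11ra1 had 0 footprint counts there, at least 3.02-fold lower against 3 counts over the group. In both cell types the receptors called, 5 and 10 of 28, lay beside 18.8% and 27.5% of all genes. Among the 22 interferon-stimulated genes, 3 values were called above 0 and 1 below it for B cells. For T cells 1 was called above 0 and 3 below it. Isg15, a ubiquitin-like protein induced by interferon, was higher in both cell types (2.84 ± 0.72 in B cells and 2.50 ± 0.58 in T cells). Oas1a went the other way in both (-1.83 ± 0.54 in B cells and -1.44 ± 0.43 in T cells), on 3 and 1 footprint counts in B cells. Ifit3 was called lower in T cells (-3.20 ± 0.87), on 2 and 2 footprint counts. In edgeR the efficiency difference was called for 0 genes of these 6 lists, as for 0 of all genes.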

How the data were processed

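The deposited values are counts per gene, made by the authors with FastQC, Bowtie2, TopHat and HTSeq on the mm10 build, per the submitters' processing notes. Tool versions, counted feature, strand and annotation release were not given in the sources used here. Values were whole numbers for 53801 Ensembl IDs in 8 libraries, of which 53620 had a symbol, and 0 columns went unused. No row named unassigned reads.

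Tests used edgeR 4.0.16 in R 4.3.3 (quasi-likelihood test, TMM scaling, filterByExpr with a minimum count of 10 and total of 15, Benjamini-Hochberg adjustment over all genes tested, threshold 0.05), with DESeq2 1.42.0 as an alternative. B and T cells were compared within each assay (4 libraries), and footprints with mRNA in a model of all 8. A standard error was the log2 difference over the square root of F. The scripts were tested on simulated data. The Stat5a to Stat5b ratio was tested by exact permutation. Differences are on the log2 scale.

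The members, lists, tests and rule for named genes were chosen with earlier results of these data known. The rule named all 9 members, and of each list and comparison up to 2 genes per direction with the smallest adjusted p, of which the text gives a part. Levels per length could not be given, since no lengths were used. Libraries of a group differed beyond sampling noise (chi-square over degrees of freedom 5.35 to 32.5). Alternatives covered scaling, filters, DESeq2, protein-coding genes, 1 fit of all libraries, the replicate block and leaving out each library. Some choices came after seeing the data: limiting the 8-library fit to genes that pass the filter on footprints, and the permutation test of assay by cell type.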

Additional observations from a re-analysis of the deposited data

Results flagged for a closer look

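Stat5a was flagged because every footprint library of B cells lay below every mRNA library of B cells, while every footprint library of T cells lay above every mRNA library of T cells. The Stat5a footprints of B cells were 2 and 3 counts. The difference between the cell types in footprints over mRNA was -3.72 on the log2 scale. Stat5b had the same arrangement, with a difference of -1.11. This arrangement was looked for in the 9 members alone, so its share over all genes is not known. In the edgeR test of the difference itself the adjusted p was 0.818 for Stat5a and 0.875 for Stat5b, so neither passed, while DESeq2 gave Stat5a an adjusted p of 0.00509.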

How the results depend on the processing

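Depth limits the footprint results: Stat5a rested on 5 counts in B cells, and Tyk2 was below the filter. The efficiency difference was called for 0 genes in edgeR, 10 with DESeq2 and 87 with the replicate number as a block, and for 0, 1 and 1 of the members. Over genes that pass the footprint filter, footprints over mRNA called 1203 genes in B cells and 1559 in T cells (2484 and 3642 over all).

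Leaving out 1 library at a time, the mRNA difference called 1455 to 1973 genes and 1 to 4 members, and the footprint difference 415 to 898 genes and 2 to 3 members. Footprints over mRNA called 1281 to 2571 genes and 0 to 4 members in B cells, and 947 to 4154 genes and 3 to 5 members in T cells. The efficiency difference called 0 in each of these. The Stat5a to Stat5b ratio, footprints against mRNA, ran from -0.042 to 0.30. A lone library was taken to vary like the other groups.

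Some values that did not pass changed sign, and the cause was not tested. With 1 library left out, Stat6 ran from -0.053 to 0.14 in the mRNA difference, from -0.0030 to 0.59 in the footprint difference, from -0.59 to 0.023 in footprints over mRNA of B cells, and from -0.20 to 0.51 in the efficiency difference. Stat2 ran from -0.47 to 0.51 in the footprint difference, and the efficiency difference from -0.96 to 0.25 for Stat4 and from -0.040 to 0.39 for Jak1. Stat6 mRNA was -0.0076 with all 8 libraries in 1 fit, and Stat2 footprints over mRNA in T cells were -0.030 over genes that pass the footprint filter.

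With the replicate block the efficiency difference was 0.037 for Stat3, 0.21 for Stat4 and -3.29 for Stat5a. Its T cell part rested on footprint library 1 and mRNA library 1 alone. In the same fit Jak3 footprints over mRNA in B cells no longer passed (adjusted p = 0.0900, edgeR). The differences between B cell libraries 1 and 3 in footprints and in mRNA had r = 0.031 over 7561 genes. A single count was 4.22 or 4.30 CPM in these footprint libraries, so counting noise could hide a shared deviation. T cell markers were higher in library 3 than in library 1 in both assays (11.4% against 1.77% in mRNA, 4.95% against 1.85% in footprints). Whether equal numbers mark the same mice is not stated, and T cell assays share number 1 alone. The block was therefore kept as an alternative.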
